A study of Mus musculus with 9 samples.

Results

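Transcript levels were compared between cultured and freshly sorted BFU-E (burst-forming unit-erythroid), early red cell progenitors of mouse fetal liver. The pair was taken by label, so that 2 of the 9 libraries of the series enter the comparison. The cultured library holds RNA of cells gated for low CD71 together with low CD24a and then kept with water. The fresh library holds RNA of cells gated for low CD71 and lysed without culture. All 9 libraries came from C57BL/6 embryos at embryonic day 13.5 to 14.5, and no genetic change is labelled. Genes were compared when 1 or more RPKM (a read count set against transcript length and sequencing depth) was reached in either library before scaling. This held for 10185 of 19840 gene names. Levels are given as normalised RPKM, which is RPKM scaled between libraries.

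The cultured cells were, per the labels' protocols, the 10% of sorted cells lowest in both CD71 and CD24a. They spent 4 h in a serum-free expansion medium. It held stem cell factor (SCF) at 100 ng/mL, insulin-like growth factor 1 (IGF-1) at 40 ng/mL and erythropoietin (EPO) at 2 U/mL. Water, the vehicle of the study's drug treatments, was then added and RNA was taken after another 4 h, 8 h in all. The fresh cells were the 10% lowest in CD71 and saw none of these agents in culture. Both gates took Kit-positive cells that lacked CD3, CD16/32, CD34, CD41, B220, Gr-1, Mac-1 and Ter119 on the surface. Paired-end mRNA libraries were made from 300 bp gel bands. A further library, of cells gated for low CD71 without the CD24a gate and cultured for the same 8 h with water, is given beside the pair as the CD71 sort culture.

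BFU-E lie between multipotent progenitors and CFU-E (colony-forming unit-erythroid), and depend on SCF acting through the receptor Kit, while EPO becomes limiting later. In the fetal liver they sit among macrophages and hepatocytes. When membrane sterol is low, the transcription factor SREBP2 is released from the endoplasmic reticulum and raises transcription of the cholesterol synthesis enzymes. LXR factors, activated by oxysterols, drive the opposite arm, cholesterol export. NRF2, ATF4 and HSF1 drive the responses to oxidants, to a shortage of amino acids and to misfolded protein.

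Recovered depth was 18.5 M reads for the cultured and 18.5 M for the fresh library, within a range of 11.9 M to 52.8 M over the series. Each condition has 1 library, so no test could be made and no value has a replicate error. A gene was called higher or lower when the difference was at least 1 on the scale of log2(normalised RPKM + 1), a 2-fold change. This scale understates the difference of low genes. Intervals are exact (Clopper-Pearson) 95% intervals of the ratio of reads and cover counting error only. The deposited values differ in form, since the cultured file holds 7355 exact values of 1 and no 0. The fresh file holds 7240 values of 0 and no exact 1. Whether reads were also assigned differently was not tested. The culture, the CD24a gate, the library itself and the form of the file differ together between the cultured and the fresh sample. Their parts cannot be told apart. In whole-sample RNA, fewer cells of a type and less RNA per cell cannot be told apart either.

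Of the 10185 genes, 1124 (11%) were at least 2-fold higher in the cultured library than in fresh BFU-E and 1302 (12.8%) were at least 2-fold lower. The median difference over these genes was -0.09. The differences followed the GC content of the transcripts. In the decile of genes lowest in GC the median difference was 0.98, and 48.4% of those genes were called higher. In the decile highest in GC the median was -0.88, and 41.5% were called lower. Across 9953 genes with a known sequence, the difference and the GC content had a Pearson correlation of -0.62, which describes genes and not samples. For the CD71 sort culture minus fresh BFU-E the same value was -0.38, and the decile medians ran from 0.51 to -0.47. Each gene was therefore also set against the median of the compared genes nearest to it in GC content. After this centring 582 of 9953 genes (5.85%) were higher and 571 (5.74%) were lower, and 395 of the higher and 426 of the lower genes were shared with the calls before centring. Values centred in this way are given beside most groups as GC-centred. What part of the gradient arose in the cells and what part in making the libraries was not tested.

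**Figure D1:**
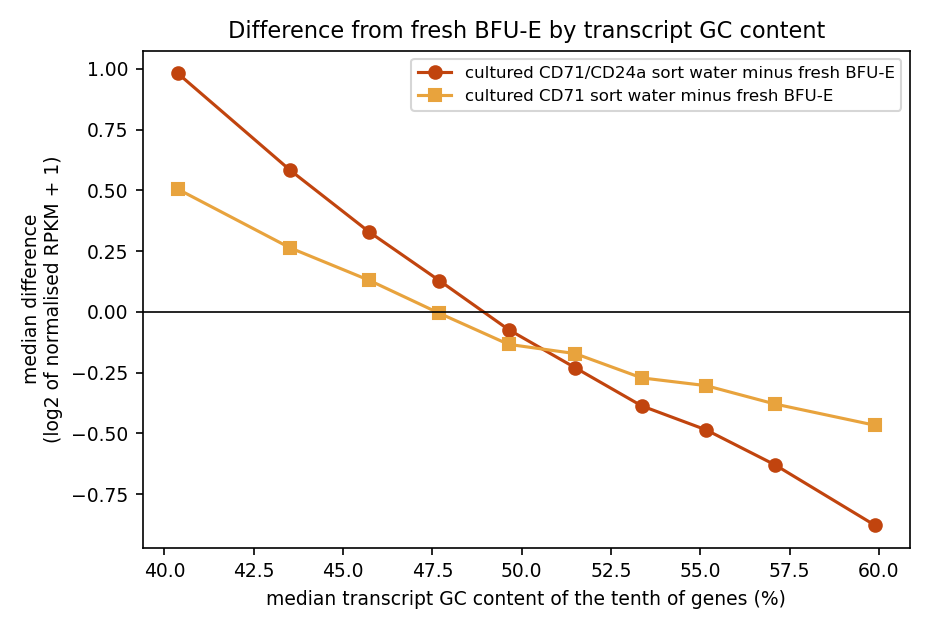
Median difference from fresh BFU-E (y axis, log2 of normalised RPKM + 1) of 10 deciles of genes ordered by transcript GC content (x axis, median percent of the decile), for the cultured CD71/CD24a sort (circles) and the cultured CD71 sort (squares). The medians fall with GC content in both cultures, in the CD71/CD24a sort through a span of 0.98 to -0.88.

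**Figure D2:**
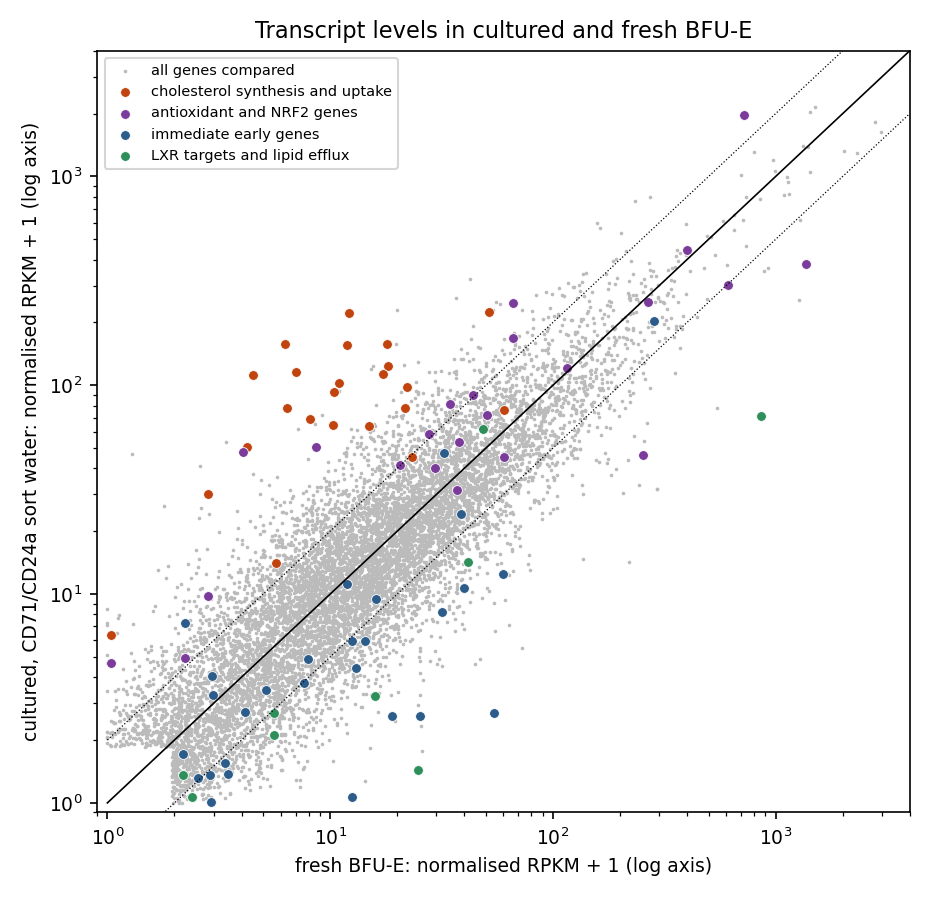
Normalised RPKM + 1 of the 10185 compared genes in the cultured CD71/CD24a sort (y axis) and in fresh BFU-E (x axis), both log axes, with equality as a solid line and 2-fold as dotted lines. Most cholesterol genes lie above the upper dotted line, and many immediate early genes and LXR targets lie below the lower one.

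The gate genes were examined first. Tfrc, which encodes CD71 and brings iron into the cell, was at 228 normalised RPKM in the cultured library and 18.9 in fresh BFU-E, 12.1-fold higher (interval 11.5 to 12.7), although the cultured cells had been sorted for low CD71. Cd24a was at 103 in the cultured library and 23.4 in fresh BFU-E, 4.39-fold higher (interval 4.07 to 4.74), although only the cultured cells had been chosen for low CD24a. In the CD71 sort culture Tfrc was at 201 and Cd24a at 165, so that Cd24a was higher in both cultures than in fresh BFU-E and lower in the gated culture than in the ungated one. Kit, the SCF receptor, was at 43.3 in the cultured library and 175 in fresh BFU-E, and was still well above background. Transcripts of negative gate markers were detected too. Cd34 was at 1.87 in the cultured library and 12.8 in fresh BFU-E, and Itga2b (CD41) at 17.9 in the cultured library and 44.0 in fresh BFU-E. Ptprc, of which B220 is an isoform, was at 2.15 in the cultured library and 3.82 in fresh BFU-E. Of 13 measured sort marker genes, 7 passed the filter, of which 3 were higher, Tfrc and Cd24a among them, and 3 lower (Kit, Cd34 and Itga2b). Shares among all compared genes were 11% higher and 12.8% lower. After GC-centring 2 sort markers were higher and 3 lower, against 5.85% and 5.74% of all, with Itga2b at -0.54 and Ptprc at -1.44. At 0 were 4 of the 13 in the cultured library and 2 in fresh BFU-E. The gates were set on surface protein, and for the cultured cells 8 h before RNA was taken.

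Cholesterol synthesis and uptake had the largest median difference of the 33 gene lists described. Of 26 listed members 24 were measured and 23 passed the level filter, 1 of them (Idi1) through the cultured library alone. Of the 23, 21 were at least 2-fold higher in the cultured library and 0 were lower, against 11% higher among all compared genes. The median difference was 3.08 before and 2.85 after GC-centring, and after centring 23 of 23 members were higher. Summed over the measured members, the list stood at 2229.5 normalised RPKM in the cultured library and 327 in fresh BFU-E. In the CD71 sort culture the sum was 2272 and the median difference from fresh BFU-E was 2.80.

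The difference ran through the whole pathway. In the early part, Mvd, which decarboxylates mevalonate diphosphate to give the isoprene unit, was at 115 in the cultured library and 5.99 in fresh BFU-E. Mvk and Pmvk, the kinases before it, were 6.85-fold and 4.60-fold higher. Idi1, the isomerase that follows, was at 5.34 in the cultured library and 0.0415 in fresh BFU-E, where it rested on 2 reads, giving a ratio of 129 with an interval of 43.3 to 1308. Fdps, which joins isoprene units to farnesyl diphosphate, was at 220.2 in the cultured library and 11.1 in fresh BFU-E, but 85.4% of its sequence occurs elsewhere, so its level is uncertain.

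In the branch that commits to sterol, Fdft1 (squalene synthase) was 14.3-fold and Sqle (squalene epoxidase) 7.16-fold higher in the cultured library. Lss, which closes the rings to lanosterol, was at 155 in the cultured library and 10.8 in fresh BFU-E, 14.3-fold higher (interval 13.4 to 15.2). The largest ratios outside Idi1 fell on the next steps, which strip methyl groups from lanosterol. Cyp51 was at 111 in the cultured library, 68.7 in the CD71 sort culture and 3.51 in fresh BFU-E, 31.7-fold higher in the cultured library than in fresh BFU-E (interval 28.1 to 36.0). Msmo1 was at 156 in the cultured library, 101 in the CD71 sort culture and 5.26 in fresh BFU-E, 29.7-fold higher in the cultured library (interval 25.9 to 34.2). Of the last enzymes, Sc5d was 15.4-fold, Hsd17b7 16.0-fold and Dhcr7 3.71-fold higher. Ebp, the sterol isomerase, was at 44.6 in the cultured library and 22.3 in fresh BFU-E and missed the 2-fold rule at a difference of 0.97.

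Transport and regulation were less uniform. Insig1, which retains SREBP in the endoplasmic reticulum and is itself a target of it, was 10.3-fold higher, and Stard4, a cytosolic sterol carrier, 6.91-fold. Srebf2, which encodes SREBP2 itself, was at 75.4 in the cultured library and 59.6 in fresh BFU-E, a difference of 0.33 that is below the 2-fold rule. After GC-centring it was 1.02.

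**Figure D3:**
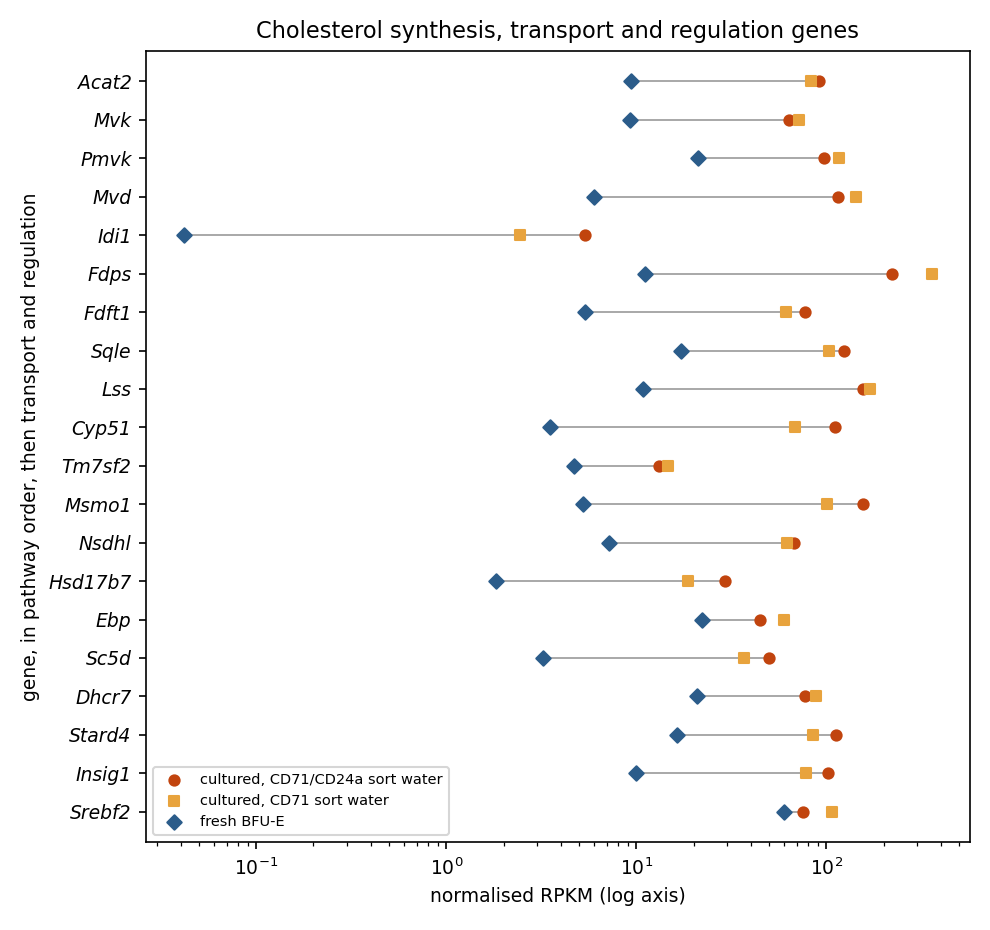
Normalised RPKM (x axis, log) of 20 cholesterol genes, in pathway order down to Dhcr7 and then transport and regulation, in the cultured CD71/CD24a sort (circles), the cultured CD71 sort (squares) and fresh BFU-E (diamonds); lines join the cultured CD71/CD24a sort and fresh BFU-E. For all 20 genes both cultures lie to the right of fresh BFU-E.

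Fatty acid synthesis, which the related factor SREBP1 serves, differed in the same direction by less. Of 16 measured members 15 passed the filter, 2 of them through the cultured library alone. Of the 15, 10 were higher and 1 was lower, against 11% and 12.8% of all compared genes. The median was 1.20 (GC-centred 9 and 0, median 1.29). Scd1, which desaturates stearate, was at 25.5 in the cultured library and 0.802 in fresh BFU-E, 31.7-fold higher (interval 25.2 to 40.3). Its paralog Scd2 was at 341 in the cultured library and 135 in fresh BFU-E, so the isoform that was nearly absent in fresh cells had the larger ratio and the abundant one the higher level. Elovl6, an elongase, was 8.50-fold higher and Fads2, a desaturase of polyunsaturated fatty acids, 3.15-fold. Me1, which supplies NADPH to the pathway, was at 4.12 in the cultured library and at 0 in fresh BFU-E, at least 88.3-fold higher when 3 reads are taken as the floor of the fresh library, with 34.8% of its sequence shared with other genes. Fasn, fatty acid synthase, was 2.31-fold higher. The member that went the other way was Srebf1, at 24.1 in the cultured library and 58.5 in fresh BFU-E, and its GC-centred difference of -0.52 did not pass.

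Genes of cholesterol export were lower in the cultured library. Of 10 measured LXR targets and lipid efflux genes 9 passed the filter, 3 of them through the fresh library alone, where they could only be lower. Of the 9, 7 were at least 2-fold lower and 0 were higher, with a median of -1.41, against 12.8% lower among all compared genes. After GC-centring 6 were lower and the median was -1.33. Abcg1, a sterol exporter, was at 0.436 in the cultured library, 0.692 in the CD71 sort culture and 23.8 in fresh BFU-E, 54.7-fold lower in the cultured library than in fresh BFU-E (interval 41.9 to 72.7). Apoe, the lipoprotein that accepts exported cholesterol, was at 70.1 in the cultured library and 862 in fresh BFU-E, 12.3-fold lower. Abca1, the other main sterol exporter, was at 0.063 in the cultured library and 1.40 in fresh BFU-E. Mylip, a ubiquitin ligase that limits lipoprotein uptake, was at 1.11 in the cultured library and 4.60 in fresh BFU-E. Lpcat3, a phospholipid remodelling enzyme that LXR also targets, was at 60.9 in the cultured library and 47.3 in fresh BFU-E and passed in neither direction. Apoe is also abundant in fetal liver macrophages and hepatocytes, and the marker lists of both cell types were at lower summed levels in the cultured library, as given below. Their part in the Apoe difference was not tested.

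Antioxidant genes differed in both directions. All 23 members passed the filter, 1 of them through the cultured library alone. Of the 23, 12 were higher and 3 were lower in the cultured library, against 11% and 12.8% of all compared genes. The median was 1.01 (GC-centred 10 and 2, median 0.65). Srxn1, sulfiredoxin, which repairs overoxidised peroxiredoxins, was at 46.8 in the cultured library, 33.1 in the CD71 sort culture and 3.04 in fresh BFU-E, 15.4-fold higher in the cultured library than in fresh BFU-E (interval 13.2 to 18.1). Nqo1, a quinone reductase and a standard NRF2 target, was 6.49-fold higher (interval 5.65 to 7.47), and Txnrd1, thioredoxin reductase, 3.76-fold, at 247 in the cultured library and 65.5 in fresh BFU-E. Slc7a11, the cystine importer that feeds glutathione synthesis, was at 3.66 in the cultured library and 0.0387 in fresh BFU-E, 94.4-fold higher with a wide interval of 45.5 to 235. The 3 lower members bind metal or reduce peroxide. Mt2, a metallothionein, was at 45.4 in the cultured library and 252 in fresh BFU-E. Mt1, the other one, was at 300.2 in the cultured library and 608 in fresh BFU-E, and its GC-centred difference of -0.30 did not pass. Gpx1, glutathione peroxidase, was at 381 in the cultured library and 1363 in fresh BFU-E. The metallothioneins stood the other way in the CD71 sort culture, with Mt2 at 452 and Mt1 at 933, above fresh BFU-E. Nfe2l2, which encodes NRF2, and its inhibitor Keap1 differed by -0.24 and -0.42.

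Among 16 heat shock and chaperone genes, 8 were higher and 0 were lower, against 11% and 12.8% of all compared genes. The median was 1.03 (GC-centred 6 and 0, median 0.88). Hsp90aa1, the inducible cytosolic HSP90, was at 249 in the cultured library and 54.5 in fresh BFU-E. Dnaja1, an HSP40 cochaperone, was at 26.7 in the cultured library and 5.22 in fresh BFU-E. Hspe1, the mitochondrial chaperonin partner of Hspd1, was at 270.0 in the cultured library and 82.6 in fresh BFU-E. These 3 share 32.9% to 62.4% of their sequence with other genes or pseudogenes, which makes their levels uncertain. Chordc1, an HSP90 cochaperone with 0.972% shared sequence, was at 48.9 in the cultured library and 10.9 in fresh BFU-E, although its transcript has only 35.7% GC and its GC-centred difference of 0.99 fell just short. Dnajb1, a sensitive marker of HSF1 activity, was at 39.9 in the cultured library and 50.2 in fresh BFU-E, and Hspa1a, the classical inducible HSP70, stayed under the filter of 1 in both libraries, at 0.165 in the cultured library and 0.0182 in fresh BFU-E.

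Among 31 ATF4 targets and amino acid supply genes that passed the filter, 4 did so through the cultured library alone and 1 through the fresh library alone. Of the 31, 9 were higher and 0 were lower, against 11% and 12.8% of all compared genes, with a median of 0.60. Here GC-centring raised the values, to 14 higher, 1 lower and a median of 0.97. Trib3, a pseudokinase that feeds back on ATF4, was at 7.33 in the cultured library, 7.05 in the CD71 sort culture and 0.597 in fresh BFU-E, 12.3-fold higher in the cultured library than in fresh BFU-E (interval 7.98 to 19.2). Nupr1, a stress-induced chromatin protein, was at 10.2 in the cultured library and 1.14 in fresh BFU-E. Mthfd2, a mitochondrial folate enzyme, was 4.61-fold higher, and Slc6a9, a glycine transporter whose cargo is a substrate of heme synthesis, 5.43-fold. Asns, asparagine synthetase, was at 106 in the cultured library and 47.0 in fresh BFU-E. Atf4 itself was at 215 in the cultured library and 101 in fresh BFU-E, 2.14-fold higher (interval 2.05 to 2.22), while Ddit3, which encodes the pro-death factor CHOP, was at 25.6 in the cultured library and 18.3 in fresh BFU-E and did not pass.

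Promoters of these stress genes and of the immediate early genes were searched for the element known for each factor, because the members of each list are classical targets. The windows were taken from RefSeq (GRCm38.p6), 250 bases before to 50 after each start, on both strands. The heat shock element was searched as GAANNTTC, the C/EBP-ATF element as TGATGNAA, the antioxidant element as TGACNNNGC, the sterol element as TCACNCCAC, and the serum response element by the name CArG box. Of listed genes with a promoter in the table, 7 of 12 heat shock genes, 8 of 24 ATF4 genes, 8 of 20 antioxidant genes and 3 of 23 immediate early genes held their element. Among 8105 compared genes with a promoter the shares were 6.66%, 2.49%, 17.3% and 1.47% in the same order. Hspe1 and Hspd1 are both among the 7 heat shock genes and hold the same site, read from opposite strands. Because the lists hold known targets of these factors, the shares do not bear on the levels measured here. The sterol element was found in 0 of 16 cholesterol genes and in 1.31% of the compared genes, which says only that these letters are not in those windows. Different elements overlapped at 2 places in the promoters of these lists. The stretches below are 60 bases long and lie upstream of the start at differing distances, so that the place and spacing of the element can be seen. They are printed for 9 of the list members that were called higher or lower and hold their element, Mt2 among them as a gene called lower. Matches on either strand are in capitals. The element begins 124 bases before the start in Dnaja1, 84 in Hspe1, 110 in Nupr1, 66 and 47 in Slc7a11 and 23 in Asns. In Txnrd1 it begins at 92 bases, in Gclm at 134, in Mt2 at 79 and in Zfp36 at 58. The windows are Dnaja1 (chr4:40722319-40722378, plus strand), Hspe1 (chr1:55088039-55088098, plus strand), Nupr1 (chr7:126625546-126625605, minus strand), Slc7a11 (chr3:50443645-50443704, minus strand), Asns (chr6:7693210-7693269, minus strand), Txnrd1 (chr10:82859089-82859148, plus strand), Gclm (chr3:122245398-122245457, plus strand), Mt2 (chr8:94172514-94172573, plus strand) and Zfp36 (chr7:28379252-28379311, minus strand).
Dnaja1, heat shock element: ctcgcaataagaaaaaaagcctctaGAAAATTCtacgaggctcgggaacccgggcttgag
Hspe1, heat shock element: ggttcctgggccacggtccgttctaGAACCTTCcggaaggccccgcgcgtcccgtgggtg
Nupr1, C/EBP-ATF element: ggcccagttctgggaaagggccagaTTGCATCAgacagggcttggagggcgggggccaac
Slc7a11, C/EBP-ATF element: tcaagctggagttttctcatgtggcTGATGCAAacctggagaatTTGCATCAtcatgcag
Asns, C/EBP-ATF element: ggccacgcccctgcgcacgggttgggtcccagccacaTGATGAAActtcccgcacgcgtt
Txnrd1, antioxidant element: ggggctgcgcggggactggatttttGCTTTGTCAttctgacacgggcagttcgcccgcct
Gclm, antioxidant element: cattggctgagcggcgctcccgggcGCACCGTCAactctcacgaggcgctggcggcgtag
Mt2, antioxidant element: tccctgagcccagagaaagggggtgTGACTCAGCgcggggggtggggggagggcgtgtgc
Zfp36, CArG box: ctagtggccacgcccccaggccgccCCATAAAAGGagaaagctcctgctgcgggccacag

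Slc7a11 is on the antioxidant and the ATF4 list, and its printed window holds the C/EBP-ATF element at 2 places, in opposite directions. Gclm, the regulatory subunit of the glutathione synthesis enzyme, was at 168 in the cultured library and 65.0 in fresh BFU-E, and with 42.1% GC its GC-centred difference of 0.65 did not pass. A match is a description of letters and does not show that a factor was bound.

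Immediate early genes, which are switched on within minutes by serum, stress or handling and have short-lived transcripts, were lower in the cultured library. Of 35 measured members 28 passed the filter, 7 of them through the fresh library alone. Of the 28, 15 were at least 2-fold lower and 1 was higher, against 12.8% and 11% of all compared genes, with a median of -1.04. After GC-centring 10 were lower, 1 was higher and the median was -0.72. Jun, an AP-1 subunit, was at 1.69 in the cultured library, 2.04 in the CD71 sort culture and 53.4 in fresh BFU-E, 31.5-fold lower in the cultured library than in fresh BFU-E (interval 26.2 to 38.2). Fos, its partner, was at 0.0661 in the cultured library, where it rested on 3 reads, and at 11.5 in fresh BFU-E, where 474 reads were counted, a ratio of 174 with an interval of 59.4 to 851. Dusp1, a phosphatase that turns off MAP kinases, was at 1.59 in the cultured library and 24.3 in fresh BFU-E, and Zfp36, which speeds decay of AU-rich mRNAs, at 1.62 in the cultured library and 17.9 in fresh BFU-E. Both cultures lay far below fresh BFU-E for these 4 genes. Ier2, Junb and Jund were also lower, by 5.08-fold, 4.02-fold and 4.30-fold, but their transcripts have 60.9% to 67.1% GC, and only Ier2 passed after centring, at -1.28.

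The exceptions were as plain. Egr1, a zinc finger factor that responds to the same signals, was at 10.1 in the cultured library and 10.9 in fresh BFU-E, a ratio whose interval of 0.831 to 1.04 includes equality. Fosl1, an AP-1 subunit that appears later than Fos, was at 6.31 in the cultured library, 6.22 in the CD71 sort culture and 1.23 in fresh BFU-E, 5.14-fold higher in the cultured library than in fresh BFU-E. Myc was at 202 in the cultured library and 284 in fresh BFU-E and did not pass.

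**Figure D4:**
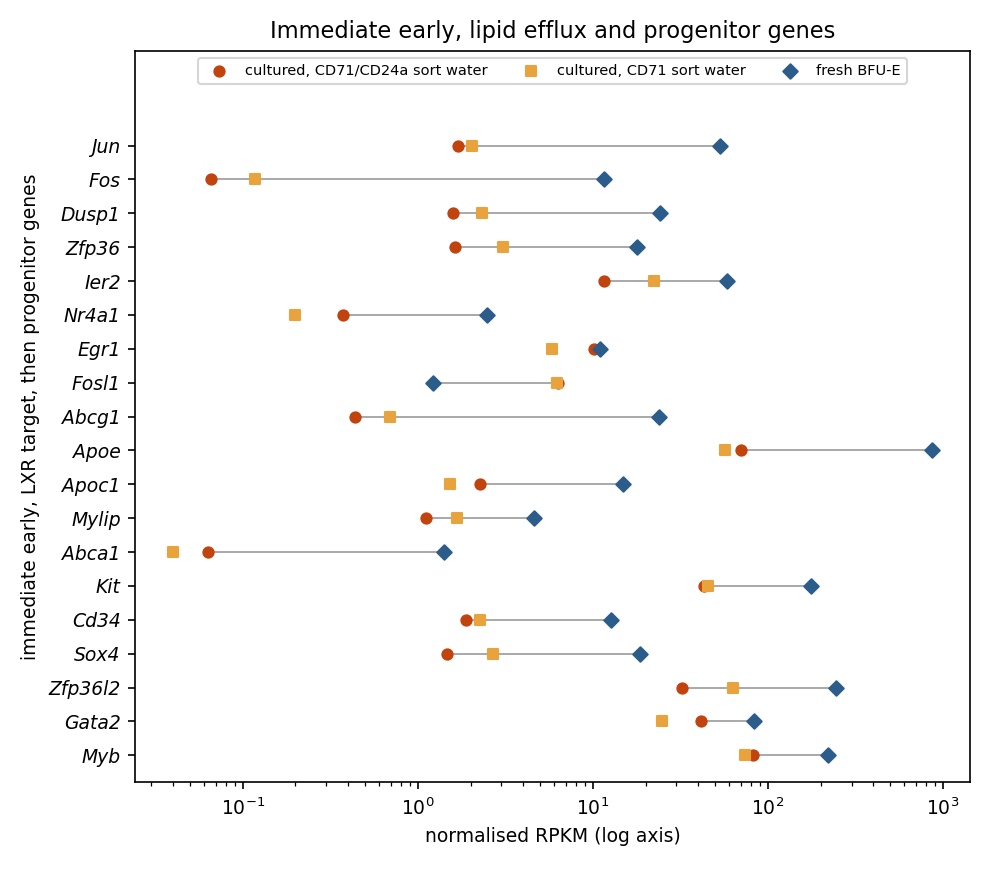
Normalised RPKM (x axis, log) of 8 immediate early genes, 5 LXR targets and 6 progenitor and erythroid genes (Kit to Myb), selected after their values were seen, in the cultured CD71/CD24a sort (circles), the cultured CD71 sort (squares) and fresh BFU-E (diamonds); lines join the cultured CD71/CD24a sort and fresh BFU-E. Fosl1 is the gene whose cultured values lie to the right of fresh BFU-E.

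Stem and progenitor genes were lower as well. Of 34 measured members 27 passed the filter, 7 of them through the fresh library alone. Of the 27, 13 were lower and 0 were higher, against 12.8% and 11% of all compared genes, with a median of -0.98. After GC-centring the counts were again 13 and 0, with a median of -0.97. The summed level was 284 in the cultured library, 289 in the CD71 sort culture and 802 in fresh BFU-E. Kit was 4.05-fold lower (interval 3.92 to 4.18), with its 2 cultured values at 43.3 and 45.4. Sox4, a factor of immature progenitors, was at 1.47 in the cultured library and 18.6 in fresh BFU-E, 12.6-fold lower (interval 10.7 to 15). Zfp36l2, an mRNA decay factor that glucocorticoids induce and BFU-E self-renewal requires, was at 32.2 in the cultured library, 62.9 in the CD71 sort culture and 244 in fresh BFU-E. In the Dex-treated arm of the CD71/CD24a sort, given 100 nM dexamethasone for the last 4 h, Zfp36l2 stood at 66.5, still under fresh BFU-E. Runx1, at 20.8 in the cultured library and 16.7 in fresh BFU-E, and Meis1, at 12.1 in the cultured library and 9.80 in fresh BFU-E, did not pass, so the list did not differ as a block.

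Erythroid regulators gave a count that depended on GC content. Of 25 members, 10 were lower and 0 were higher, against 12.8% and 11% of all compared genes, with a median of -0.81. After GC-centring 3 were lower and 1 was higher, against 5.74% and 5.85% of all, and the median was -0.20. Gata1, the master factor of the lineage, was at 133 in the cultured library and 169 in fresh BFU-E, and Tal1, its partner, at 60.4 in the cultured library and 66.8 in fresh BFU-E. Klf1, which drives globin and membrane genes, was at 75.4 in the cultured library and 187 in fresh BFU-E, but its transcript has 61.0% GC and the centred difference was -0.30. Zfpm1 (FOG1), the GATA1 cofactor, was at 64.7 in the cultured library and 264 in fresh BFU-E, with 66.8% GC, and stayed just past the 2-fold rule after centring. Myb, a factor that holds back maturation, was at 82.2 in the cultured library and 219.9 in fresh BFU-E, and its centred difference of -1.65 passed. Epor was at 43.5 in the cultured library and 87.0 in fresh BFU-E, a difference of -0.98 that was -0.19 after centring.

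Targets of cytokine signalling were higher in part. Of 20 STAT5 and cytokine feedback genes that passed the filter, 2 did so through the cultured library alone, so they could be called higher but not lower. Of the 20, 4 were higher (20%) and 1 was lower (5%), against 11% and 12.8% of all compared genes. The median was 0.43. After GC-centring 8 were higher and 1 was lower, against 5.85% and 5.74% of all. Cish, the feedback inhibitor that EPO induces through STAT5, was at 12.0 in the cultured library, 20.0 in the CD71 sort culture and 3.57 in fresh BFU-E, 3.38-fold higher in the cultured library than in fresh BFU-E (interval 2.88 to 3.96). Csf2rb, the common beta chain of the IL-3 and GM-CSF receptors, was at 12.4 in the cultured library and 1.54 in fresh BFU-E, with 29.3% of its sequence shared with other genes. Its paralog Csf2rb2 was at 5.51 in the cultured library and 0.0995 in fresh BFU-E. Id1, an inhibitor of basic helix-loop-helix factors, was 3.64-fold higher. Pim1, a survival kinase, was at 59.4 in the cultured library and 33.5 in fresh BFU-E, and passed only after centring, at 1.36. Socs2, another feedback gene, was at 1.67 in the cultured library and 2.44 in fresh BFU-E.

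Glucocorticoid-induced genes were in part lower. Of 27 measured members 22 passed the filter, 3 of them through the fresh library alone. Of the 22, 9 were lower, 1 was higher and 12 lay within 2-fold, against 12.8% lower and 11% higher among all compared genes. The median was -0.62 (GC-centred 7 and 1, median -0.60). Of the 22 members, Dusp1, Zfp36, Mt2 and Zfp36l2 are given above and sit on other lists too. Nfkbia, the inhibitor of NF-kappaB, was at 2.89 in the cultured library and 25.1 in fresh BFU-E, 8.68-fold lower (interval 7.02 to 10.8). Tsc22d3, a standard reporter of the receptor, was at 5.83 in the cultured library and 10.8 in fresh BFU-E, and Fkbp5, another, at 22.9 in the cultured library and 32.0 in fresh BFU-E. Neither passed. The higher member was Cdkn1a (p21), a cell cycle inhibitor also induced by p53, at 15.4 in the cultured library and 1.79 in fresh BFU-E. Nr3c1, the receptor, was at 11.7 in the cultured library and 23.6 in fresh BFU-E, a difference of -0.96.

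Genes of the maturing red cell moved in both directions. Hbb-bt, an adult beta-globin, was at 119 in the cultured library, 822 in the CD71 sort culture and 14.3 in fresh BFU-E, and 58.9% of its sequence is shared. Hbb-bh1, an embryonic beta-like globin, was at 2.42 in the cultured library and 0 in fresh BFU-E, at least 9.66-fold higher with 3 reads as the floor of the fresh library. The alpha-globin genes Hba-a1 and Hba-a2 are near-identical copies, each listed with 2 records. For Hba-a1 the first record was at 5.12 in the cultured library and 18.6 in fresh BFU-E, and the second at 23.4 in the cultured library and 3.47 in fresh BFU-E. The sum of both was 28.5 in the cultured library, 292 in the CD71 sort culture and 22.1 in fresh BFU-E, a difference of 0.35 from fresh BFU-E for the cultured library, so no direction is given for alpha-globin. In both comparisons with fresh BFU-E the beta-globin difference was positive, and the culture gated on CD24a held the lower globin level of the 2 cultures.

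Of 22 heme and iron genes, 6 were higher and 2 were lower (GC-centred 5 and 0), with a median of -0.24. Shares among all compared genes were 11% and 12.8% (GC-centred 5.85% and 5.74%). Alas2, the erythroid first enzyme of heme synthesis, was at 6.11 in the cultured library and 1.37 in fresh BFU-E, and Cpox, a later enzyme, at 344 in the cultured library and 140.3 in fresh BFU-E. Fth1, the heavy chain of the iron store ferritin, was at 1965 in the cultured library and 722 in fresh BFU-E. Tfr2, the second transferrin receptor, was at 18.1 in the cultured library and 59.9 in fresh BFU-E, opposite to Tfrc. Of 28 red cell membrane genes, set against the same shares, 5 (17.9%) were higher and 7 (25%) were lower (GC-centred 5 and 5). Rhag, a subunit of the Rh complex, was 3.32-fold higher. Aqp1, the water channel, was at 13.3 in the cultured library, 25.2 in the CD71 sort culture and 219 in fresh BFU-E, 16.4-fold lower in the cultured library than in fresh BFU-E (interval 15.3 to 17.7), and Rhd was 4.19-fold lower.

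Growth and division genes differed less. Of 30 ribosome biogenesis genes, 8 were higher and 0 were lower, against 11% and 12.8% of all compared genes. The median was 0.50 (GC-centred 4 and 0, median 0.71). Ncl, nucleolin, was at 599.6 in the cultured library and 157 in fresh BFU-E, and Nop58, a snoRNP core protein, at 246 in the cultured library and 66.2 in fresh BFU-E. In the MYC list Odc1, the first enzyme of polyamine synthesis, was 3.53-fold higher with 51.2% shared sequence, and Mxd4, which opposes MYC at its sites, was at 0.822 in the cultured library and 14.1 in fresh BFU-E. Of 36 replication and mitosis genes, 3 were higher and 1 was lower, with a median of 0.12. The member that was lower was Ccnd1 (cyclin D1), at 1.98 in the cultured library and 11.9 in fresh BFU-E. Mki67, a marker of cycling cells, was at 96.2 in the cultured library and 88.8 in fresh BFU-E. Glycolysis gave 1 higher and 2 lower of 20, with a median of 0.26. After GC-centring 5 of the 20 were higher and 0 were lower, against 5.85% and 5.74% of all compared genes, and the median was 0.57. Oxidative phosphorylation gave 1 higher and 2 lower of 29. The HIF targets outside glycolysis gave 4 higher (13.8%) and 8 lower (27.6%) of 29, against 11% and 12.8% of all compared genes. After centring they gave 4 and 3, against 5.85% and 5.74% of all. Of these 29 HIF targets, 4 passed the filter through the cultured library alone, so they could be called higher but not lower. For replication, glycolysis and oxidative phosphorylation as measured, the shares are below those of all compared genes in each direction. For glycolysis genes called higher this held only before centring.

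Some surface, motility and antigen presentation genes were lower. Of 35 cytoskeleton and adhesion genes, 11 were lower, 2 were higher and 22 lay within 2-fold, against 12.8% lower among all compared genes. After GC-centring 5 of the 35 were lower and 1 was higher, against 5.74% lower among all. Selplg, the selectin ligand of leukocytes, was at 3.88 in the cultured library and 45.8 in fresh BFU-E, 11.8-fold lower (interval 10.0 to 14), and Cxcr4, the chemokine receptor that holds progenitors in their niche, at 0.153 in the cultured library and 3.35 in fresh BFU-E. Of 14 MHC class I and immunoproteasome genes, 5 were lower and 0 were higher, against 12.8% and 11% among all. The GC-centred counts were 5 and 1, against 5.74% and 5.85% among all. The immunoproteasome subunits Psmb9 and Psmb8 were 7.77-fold and 3.66-fold lower, and Tap1, the peptide transporter, was at 4.36 in the cultured library and 24.2 in fresh BFU-E.

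**Figure D5:**
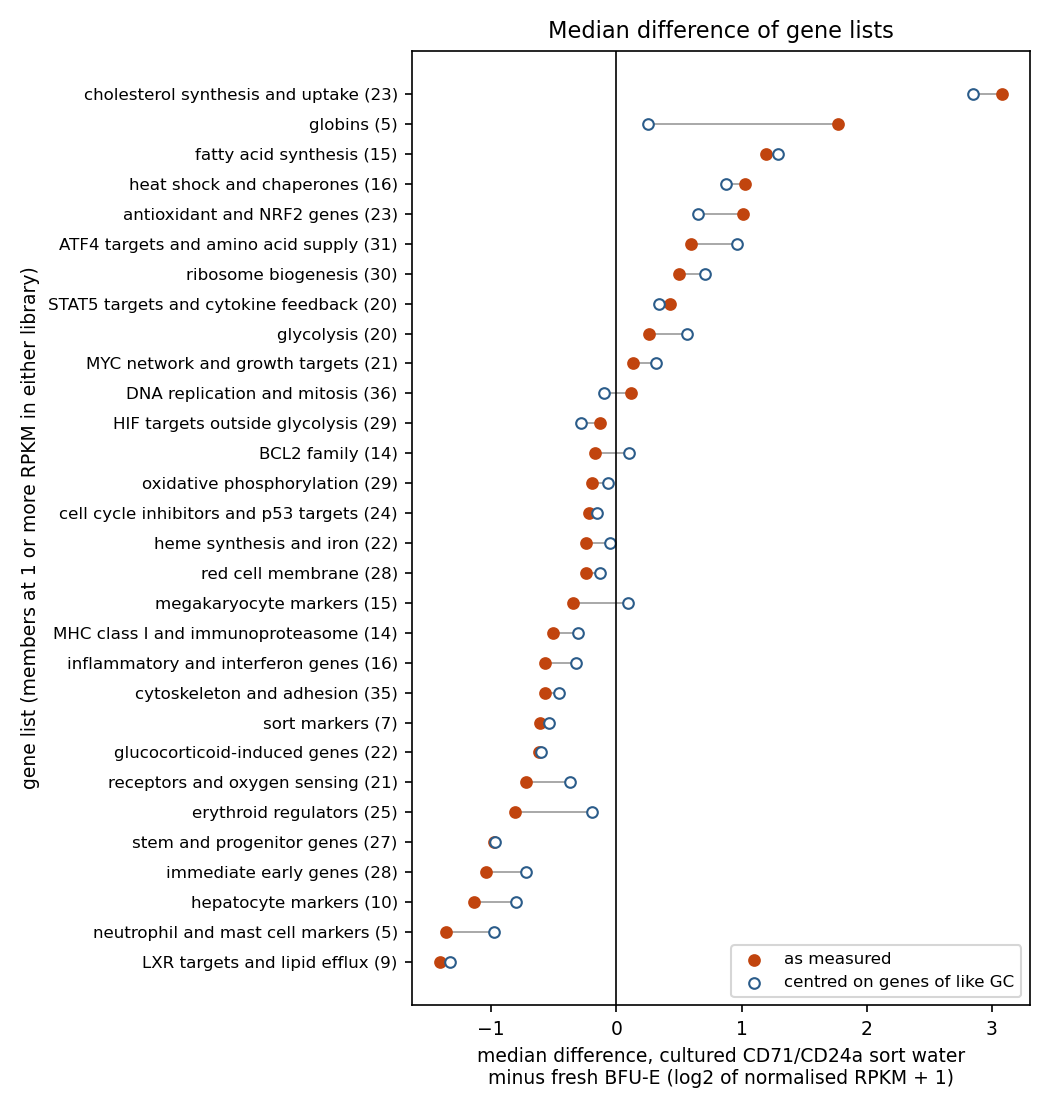
Median difference of gene lists, cultured CD71/CD24a sort minus fresh BFU-E (x axis, log2 of normalised RPKM + 1), for 30 lists with at least 5 members that passed, as measured (filled) and GC-centred (open), with the number of members in brackets. Cholesterol synthesis and uptake lies highest at 3.08 and LXR targets and lipid efflux lowest at -1.41, and the globin and erythroid regulator medians move most on centring. The filled globin point is the median of 5 genes and the open one of the 4 with a known GC content, so the globin points do not cover the same genes.

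Markers of neutrophils and mast cells, macrophages, hepatocytes, endothelium and lymphoid cells had lower summed levels in the cultured library. Those of megakaryocytes did too, with single members called in both directions. Summed over 23 measured neutrophil and mast cell markers, the level was 6.80 in the cultured library, 30.2 in the CD71 sort culture and 105 in fresh BFU-E, and 12 of the 23 were at 0 in the cultured library and 4 in fresh BFU-E. Mpo, myeloperoxidase of granulocyte precursors, was at 4.51 in the cultured library and 71.5 in fresh BFU-E, 15.8-fold lower (interval 14 to 18). Prtn3, a granule protease, was at 1.33 in the cultured library and 24.6 in fresh BFU-E, and Elane, the neutrophil elastase, at 0 in the cultured library and 0.832 in fresh BFU-E. The 5 members that passed were all lower, but 3 of them passed only through the fresh library, where they could only be lower. After GC-centring 2 of the 5 were lower, against 5.74% of all compared genes. The summed macrophage markers were at 1.47 in the cultured library and 8.42 in fresh BFU-E, and 11 of 19 were at 0 in the cultured library and 4 in fresh BFU-E. The summed hepatocyte markers were at 27.7 in the cultured library and 66.1 in fresh BFU-E, with Alb, albumin, at 3.95 in the cultured library and 10.0 in fresh BFU-E. The summed endothelial markers were at 10.7 in the cultured library and 45.3 in fresh BFU-E, and the lymphoid markers at 2.49 in the cultured library and 10.5 in fresh BFU-E. Most of both lymphoid sums was Cd79b, the 1 lymphoid marker that passed the filter, at 1.69 in the cultured library and 8.14 in fresh BFU-E. At 0 were 2 of 17 hepatocyte, 2 of 11 endothelial and 7 of 15 lymphoid markers in the cultured library, against 1, 1 and 3 in fresh BFU-E. Of 2 macrophage, 10 hepatocyte and 4 endothelial markers that passed, 1, 6 and 2 were lower, against 12.8% of all compared genes. Through the fresh library alone passed 2, 4 and 1 of them. After GC-centring 1, 1 and 1 were lower, against 5.74% of all. Megakaryocyte markers were mixed, with 3 higher (20%) and 4 lower (26.7%) of 15, against 11% and 12.8% of all compared genes. Their median was -0.34, and 5 of the 15 differed upward by any amount. Summed over 18 measured members, the level was 116 in the cultured library and 159 in fresh BFU-E. After GC-centring 3 were higher and 3 lower, with a median of 0.09. Among the megakaryocyte markers was Plek, a platelet signalling protein, at 19.7 in the cultured library and 2.87 in fresh BFU-E. What these markers contribute to the lower progenitor, immediate early and surface genes was not tested.

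Several of the 15 largest differences in each direction lay outside these lists. Upward, Arhgdig, a regulator of small GTPases, was at 24.9 in the cultured library, 30.5 in the CD71 sort culture and 1.63 in fresh BFU-E. Ubb-ps, a ubiquitin pseudogene, was at 52.3 in the cultured library and 2.40 in fresh BFU-E with 91.7% shared sequence, and 1 record without a matched symbol was also among the 15. Downward, Gm2a, an activator of lysosomal ganglioside breakdown, was at 0.278 in the cultured library and 13.3 in fresh BFU-E, 47.9-fold lower (interval 32.0 to 73.7). Hdac7, a class IIa histone deacetylase, was at 13.7 in the cultured library and 135 in fresh BFU-E. Ndufa4l2, a relative of a respiratory chain subunit, was at 0.767 in the cultured library and 24.9 in fresh BFU-E, and Prss50, a serine protease, at 3.65 in the cultured library and 43.6 in fresh BFU-E. Tpt1, a growth-related protein, was at 30.8 in the cultured library and 293 in fresh BFU-E with 42.8% shared sequence, and the CD71 sort culture stood between them at 182.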

How the data were processed

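Paired-end mRNA reads of 9 fetal liver libraries were the base of the series, and 2 libraries were compared here. The deposited values are RPKM computed by the authors, 23041 records in each file. Per the submitters' processing notes the build was mm9. For the aligner, the read counter and the handling of reads with several matches, the names are not given in the sources used here. Exact values of 1 numbered 7355 in the cultured file, which holds no 0, and the fresh file holds 7240 values of 0 and no exact 1, so an exact 1 was read as 0.

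Symbols came from RefSeq and GENCODE tables of GRCm38 for 22397 and 114 records, and each of 2158 names with several records took its highest record by mean level. Each library was divided by a median ratio factor over 6888 genes, 1.17 for the cultured and 1.06 for the fresh library. Steps between low values (66.8% and 68.2% whole within 0.1 reads, against 20% by chance) gave a depth of 18.5 M reads for each of the 2 libraries and 11.9 M for the CD71 sort culture. For 1 kb of transcript, 3 reads came to 0.162 RPKM. The difference was log2(normalised RPKM + 1), cultured minus fresh. GC content and shared sequence (32-base words also found in another gene, with 10% or more called shared) came from GENCODE transcripts of GRCm38. Calculations used Python 3.11.15, numpy 2.4.6, pandas 2.3.3 and scipy 1.17.1 and were tested on simulated data.

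The text names the 15 largest differences each way, up to 5 of each list, the gate genes and small families. Other list members named were picked after their values were seen. The members and gene lists were chosen with earlier results of these data known. Alternatives were no scaling, other factors, another pseudocount, other filters, keeping exact 1 values and summing records, and, added after seeing the data, centring on GC and leaving out genes with shared sequence. Nothing was tested, since each condition has 1 library, and no coordinates of mm9 are given. Values of some list members are not reported here.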

Additional observations from a re-analysis of the deposited data

Results flagged for a closer look

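The alpha-globin genes stood the opposite way in the 2 cultures when 1 record, the highest by mean level, stood for each gene. Hba-a1 differed by -1.68 in the CD71/CD24a sort culture minus fresh BFU-E and by 3.85 in the CD71 sort culture minus fresh BFU-E. Hba-a2 differed by -1.68 and 3.84 in the same pair of comparisons, which share the fresh library. The difference between the cultures was not tested, since each is 1 library. With the 2 records of each gene summed, Hba-a1 differed by 0.35 and 3.67.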

How the results depend on the processing

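No paired analysis was possible because each condition has 1 library. Centred on GC, 582 genes were higher and 571 lower, the erythroid regulator median was -0.20 and the glycolysis median 0.57. Among 8573 genes with under 10% shared sequence, 798 (9.31%) were higher and 1143 (13.3%) lower. The globin median was 3.05 with a pseudocount of 0.1. Lists of few or low members moved most. The neutrophil and mast cell median was -0.14 with no filter, 0.75 with exact 1 values kept and -0.98 centred on GC. The macrophage median was -2.32 with a pseudocount of 0.1, -0.066 with no filter and 0.83 with exact 1 values kept. The hepatocyte median was -1.28 with a pseudocount of 0.1, and the endothelial median -0.34 with no filter. The single lymphoid gene that passed gave -1.69 with no scaling, -1.74 with factors from the 2 libraries, -2.20 with a pseudocount of 0.1, -0.11 with no filter (then over 15 genes), 0.79 with exact 1 values kept, -1.76 with records summed and -1.40 centred on GC. An exact 1 kept as deposited sets a floor of 1 in the cultured file alone, which turns the sign of low lists. With records summed Hba-a1 and Hba-a2 each turned to 0.35. Of 201 named genes that passed, 159 were 2-fold different, and 155 to 159 of these stayed so in the same direction under other scaling, pseudocount 0.1, exact 1 kept or summed records. Centred on GC, 118 of 155 did and 0 turned. Many of these genes were named for a large difference, so the counts do not measure how stable calls are in general. Over all compared genes, 395 of 1124 higher and 426 of 1302 lower calls were shared with those after centring. Depth limits genes such as Idi1 and Fos, which rest on 2 and 3 reads in 1 library.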

Other observations

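In the deposited files 142 transcript accessions are listed at more than 1 place. For 3 genes examined among them, Gm5643, Hba-a1 and Hba-a2, the levels of the records stood in opposite order in different libraries. Gm5643 had the largest upward difference, 5.18, when its highest record stood for it, and 3.06 with its 2 records summed, which is below Cyp51 at 4.64. Its first record was at 0.532 normalised RPKM in the cultured CD71/CD24a sort with water, 0.517 in its Dex arm, 22.6 in the CD71 sort culture and 4.39 in fresh BFU-E. The second was at 45.9, 39.4, 0.474 and 0.295 in the same libraries. Summed, the records were at 46.4 in the cultured CD71/CD24a sort, 23.03 in the CD71 sort culture and 4.68 in fresh BFU-E. The records of Hba-a1 and Hba-a2 showed the same exchange, for Hba-a1 with the second record at 23.4 in the cultured CD71/CD24a sort and 32.1 in its Dex arm, against 11.2 in the CD71 sort culture and 3.47 in fresh BFU-E. The 4 files of the CD71/CD24a sort are also those that hold exact 1 values in place of 0. Among 1341 compared genes with several records, the 2 called genes that turned sign on summing were Hba-a1 and Hba-a2.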
